A study of Paeonia lutea x Paeonia suffruticosa with 9 samples.

Results

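FT (c79621) and TEM2 (c49765) are 2 of the 137758 transcripts measured in floral buds of ‘High Noon’, a tree peony cultivar, and they were taken by the identifiers that the study matches to these genes of the model plant. The number is that of the transcripts listed in each table and exceeds the non-redundant set that the study's methods name as the reference for mapping, a difference that was not resolved. The study placed them on its list of 26 flowering DEGs (differentially expressed genes) from these same libraries, so the q values below are not independent evidence that they change. The buds are labelled as from 5-year-old plants, where the study's methods give a range of ages that ends there. They were freed of the adjacent scales and leaves, and 3 RNA-seq libraries were made per stage. Stage I is the vegetative meristem (libraries S1_1 to S1_3), stage II the floral meristem (S2_1 to S2_3) and stage III the formed floral organ (S3_1 to S3_3). The study also describes stage II as the time when floral organs differentiated. All 3 stages shared the cultivar, a cross of Paeonia suffruticosa and Paeonia lutea, and no treatment was given. The sources used here do not say whether the replicates of a stage came from separate plants, so the p values measure the spread between these libraries. A whole bud was sequenced, so fewer cells that express a gene and less of its RNA per cell cannot be told apart.

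In the model plant, FT encodes florigen, a small protein that is made in the phloem of leaves in inductive conditions and moves to the shoot apex. At the apex it binds the bZIP factor FD and activates AP1 and FUL, which give the new meristem its floral identity, and LFY and the SEPALLATA genes act with them in forming the flower. TEM2 and its close relative TEM1 are RAV-type DNA-binding repressors. They bind the FT gene and keep it low in young plants, and the balance between the activator CO and the TEM proteins sets the level of FT. The comparison of FT with TEM2 over the stages of the bud therefore asks whether the target and its repressor take opposite courses.

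The libraries held 20065002 to 20996594 fragments at stage I, 20230573 to 25195520 at stage II and 20096583 to 22657762 at stage III. In the study's quality figures, each stage I library had a lower RNA integrity number and a lower mapping rate than every library of the other stages. RNA quality thus cannot be told apart from stage in the comparisons with stage I. S1_3 stood apart from the other stage I libraries: its mean Pearson correlation with them, on log2(FPKM + 1) over all transcripts, was 0.925, against 0.951 for S1_1 and 0.948 for S1_2. FPKM counts fragments per kilobase of transcript, scaled to the size of the library, so levels can be compared between the 2 transcripts. Read counts divided by FPKM gave effective lengths of 603 to 644 bp for FT and 1163 to 1206 bp for TEM2, so TEM2 collects about double the fragments at an equal FPKM. Markers of leaf or vascular cells were not analysed here, as the tables read carry identifiers without gene names and the study's separate annotation of the transcripts was not used.

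FT was scarce at stage I and abundant at stage III, with stage II scattered in between. Its FPKM was 0.55, 1.24 and 0.37 in the stage I libraries, 12.26, 1.42 and 3.64 in the stage II libraries S2_1, S2_2 and S2_3, and 15.86, 14.59 and 8.48 in the stage III libraries. The means were 0.72 ± 0.459 at stage I, 5.77 ± 5.73 at stage II and 13.0 ± 3.95 at stage III (SD, n = 3 each). These levels rested on 7, 15 and 5 reads at stage I, 188, 21 and 45 reads at stage II and 196, 184 and 117 reads at stage III. Among the transcripts with reads in a library, FT stood at the 26.3 to 42.6 percentile of FPKM at stage I and at the 78.3 to 87.4 percentile at stage III. At stage II it stood at the 83.7 percentile in S2_1, the 45.1 percentile in S2_2 and the 60.2 percentile in S2_3.

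**Figure D1:**
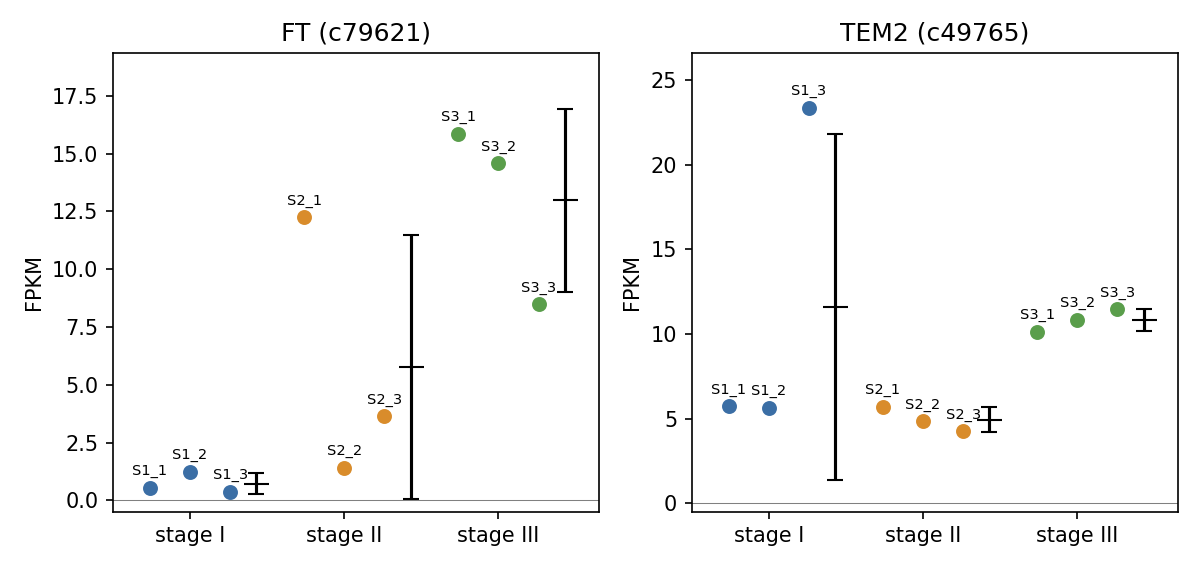
FPKM of FT (left) and TEM2 (right) in each of the 9 libraries, by stage. Points are libraries, and the bars beside them give the mean and SD of the 3 libraries of a stage. S2_1 lies at 12.26 FPKM for FT, near the stage III libraries, and S1_3 lies at 23.36 FPKM for TEM2, above all other libraries.

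Between stage III and stage I, FT rose. Its log2 fold change was 4.06 (SE 0.50, edgeR q = 0.00434), and it was higher in each of the 9 pairs of a stage III and a stage I library. A transcript was called where q was under 0.05 and the fold change over 2, and 22.2% of the 65124 transcripts tested were called in this comparison, 11.9% as higher and 10.3% as lower. In the same way, the stage III libraries lay wholly above those of stage I for 31.2% of all transcripts tested, so a lack of overlap is common. With any 1 library left out the log2 fold change stayed between 3.72 and 4.60 and the call was kept. At a q value under 0.001, the study's threshold, FT was not called in edgeR, and only 0.00614% of the transcripts were. The study applied that threshold with DESeq, and the DESeq2 q value of FT here was 1.83e-11.

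Between stage II and stage I, FT had a log2 fold change of 2.81 (SE 0.87, edgeR q = 0.0654), which did not pass the threshold, while 17.5% of 64662 transcripts did, 9.49% as higher and 7.98% as lower. Each stage II library was above each stage I library, which was also the case for 29.1% of all transcripts tested. The gap between the stages was narrow. The lowest stage II library, S2_2, had 0.875 CPM (reads scaled to the library total, exact 95% Poisson interval 0.542 to 1.34), and the highest stage I library, S1_2, had 0.748 (0.418 to 1.23), so these libraries differed by less than counting error. Without S2_1 the log2 fold change was 1.78, and DESeq2 gave 2.83 with a q value of 0.00869, which passed the threshold.

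Between stage III and stage II, FT had a log2 fold change of 1.20 (SE 0.66, edgeR q = 0.409), and 8 of 9 pairs of libraries were higher at stage III. The exception was S3_3, at 8.48 FPKM, against 12.26 in S2_1. Without S2_1 the log2 fold change was 2.35 (edgeR q = 0.0847), and without S2_2 it was 0.75 (q = 0.531). In this comparison 1.48% of 64971 transcripts were called, 0.734% as higher and 0.743% as lower.

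The scatter of FT within stage II was far above counting error. S2_1 had 7.46 CPM (exact 95% Poisson interval 6.43 to 8.61), S2_3 had 2.22 (1.62 to 2.98) and S2_2 had 0.875 (0.542 to 1.34), so none of the 3 intervals overlapped. The highest of these libraries had 8.63 times the FPKM of the lowest, against 3.35 times at stage I and 1.87 times at stage III. On log2(FPKM + 1), the SD of FT at stage II exceeded that of 99.1% of the 57003 transcripts with a mean of at least 20 reads there.

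S2_1 was also the stage II library with the most PI, a B-class gene for petal and stamen identity. PI (c9787) had 59.51 reads in S2_1, against 6 in S2_2 and 7 in S2_3, and PI (c42964) had 65.49 in S2_1 and none in the others. These PI transcripts share reads, as their fractional counts complete each other to whole numbers in every library (tolerance 0.02). They are thus not separate observations. Of the transcripts tested in any comparison, 466 had at least 20 reads and at least 3 times the normalized level of the other stage II libraries in S2_1, or 0.688%. The corresponding numbers were 408 in S2_2 and 510 in S2_3. In S2_1 they included FT, SEP3 (c231904) and both PI transcripts, and in S2_2 and S2_3 none of the 26 flowering transcripts. This fold limit was chosen after the values were seen. Over all transcripts S2_1 was no closer to stage III than S2_2 was, with mean Pearson correlations of 0.975 for both and 0.968 for S2_3. The part of tissue that expresses PI in the FT value of S2_1 was not tested.

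TEM2 followed another course: level in 2 of the stage I libraries and at stage II, and higher at stage III, with a single very high stage I library. Its FPKM was 5.73 in S1_1, 5.66 in S1_2 and 23.36 in S1_3, then 5.72, 4.84 and 4.26 in the stage II libraries, and 10.14, 10.85 and 11.45 in the stage III libraries. The means were 11.6 ± 10.2 at stage I, 4.94 ± 0.735 at stage II and 10.8 ± 0.656 at stage III (SD, n = 3 each). The reads behind them numbered 132.1 to 591.61 at stage I, 100.78 to 168.19 at stage II and 239.08 to 302.72 at stage III. Outside S1_3, TEM2 lay between the 63.5 and 83.2 percentile of FPKM in every library, and in S1_3 at the 91.4 percentile. On log2(FPKM + 1), the SD of TEM2 at stage III was larger than that of 20.4% of the 55923 transcripts with a mean of at least 20 reads there, and at stage I it was larger than that of 93.6% of 53812.

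Between stage III and stage II, TEM2 rose. The log2 fold change was 1.13 (SE 0.14, edgeR q = 0.0178), and all 9 pairs of libraries were higher at stage III. Of all transcripts tested here, 0.734% were called as higher, and for 11.5% the stage III libraries lay wholly above those of stage II. The size of the change was stable, at 1.05 to 1.22 with any 1 library left out, but the call was lost without S2_3 and without any of the stage III libraries, with q values of 0.0530 to 0.0854. It was also lost with all 9 libraries in 1 fit (q = 0.688) and at an edgeR q value under 0.001, which 0.00616% of the transcripts reached. DESeq2 gave a log2 fold change of 1.14 with a q value of 5.03e-07.

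Between stage II and stage I, TEM2 had a log2 fold change of -1.39 (SE 0.60, edgeR q = 0.147), and 8 of 9 pairs of libraries were lower at stage II. This value rested on S1_3, and without it the log2 fold change was -0.34 (q = 0.238). Between stage III and stage I the log2 fold change was -0.26 (SE 0.61, edgeR q = 0.779). Without S1_3 the direction turned, to 0.78 (q = 0.00901), a change under 2-fold that is no call. TEM2 at stage III then exceeded S1_1 and S1_2 in each of 6 pairs.

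**Figure D2:**
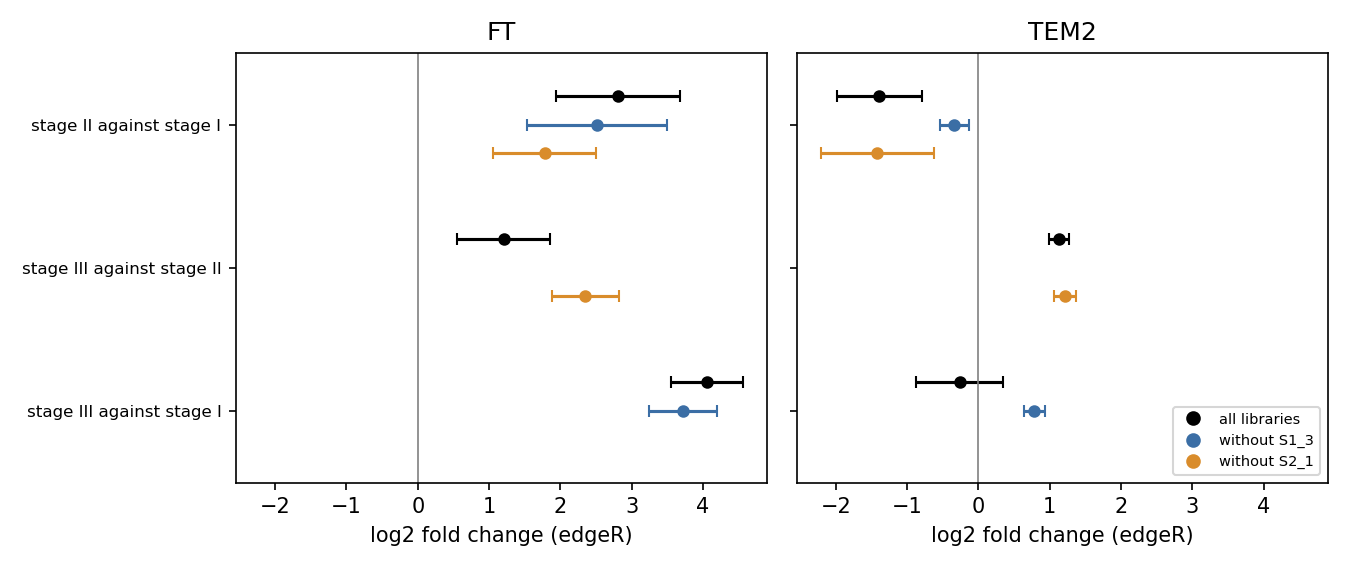
Log2 fold changes of FT (left) and TEM2 (right) in edgeR for the 3 comparisons of stages, with bars for the SE. Black points use all libraries of a comparison, blue points leave out S1_3 and orange points leave out S2_1. FT is positive in every case shown, while TEM2 between stages III and I is at -0.26 with all libraries and at 0.78 without S1_3.

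The counts of TEM2 are shared with another transcript, whereas those of FT are not. RSEM divides a read that fits several transcripts between them, which leaves fractional counts. FT had a whole count in all 9 libraries, as had 10.2% of the 62148 transcripts with reads in every library (tolerance 0.005), so none of its reads was divided in fractions that show. TEM2 had a whole count in none. Among 85509 transcripts with fractional counts, exactly 1, c249520 (i1_LQ_HNbud_c249520/f1p3/1444), completed the counts of TEM2 to whole numbers in all 9 libraries (tolerance 0.02). The study's list does not name this transcript. TEM2 held 59.2% to 76.4% of their summed reads.

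The summed reads do not depend on how RSEM divided them. They numbered 227, 190 and 898 in the stage I libraries, 223, 230 and 134 at stage II and 313, 402 and 453 at stage III. The course of TEM2 alone was kept: S1_3 was far above all other libraries, and the stage III libraries were above those of stage II and above S1_1 and S1_2. The order within stage II was not kept, as the sum was highest in S2_2, at 9.59 CPM, against 8.85 in S2_1. In place of TEM2, the sum had a log2 fold change of 1.13 (SE 0.18, edgeR q = 0.0323) between stages III and II and of -1.46 (q = 0.134) between stages II and I. Between stages III and I it was -0.33 (q = 0.718), and 0.70 (q = 0.0225) without S1_3. This alternative was added after the data were seen.

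Within a library, the ratio of FT to TEM2, taken without c249520, was far below 1 at stage I and near 1 at stage III. It was 0.0960, 0.219 and 0.0158 in the stage I libraries, 2.14, 0.293 and 0.854 in S2_1, S2_2 and S2_3, and 1.56, 1.34 and 0.741 in the stage III libraries. FT was the more abundant of the 2 transcripts in S2_1, S3_1 and S3_2 and TEM2 in the other 6 libraries. Against the summed FPKM of TEM2 and c249520, the ratio was 0.0585, 0.152 and 0.0104 in the stage I libraries. It was then 1.62, 0.173 and 0.642 in S2_1, S2_2 and S2_3, and 1.19, 0.872 and 0.494 at stage III. FT exceeded this sum in S2_1 and S3_1 only, so which was the more abundant in S3_2 depended on the shared reads. The mean log2 ratio was -3.85 ± 1.94 at stage I, -0.30 ± 1.44 at stage II and 0.21 ± 0.570 at stage III (SD, n = 3 each).

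The log2 ratio differed by 3.55 between stage II and stage I and by 4.06 between stage III and stage I, and in both cases all 9 pairs of libraries lay on the same side (two-sided exact permutation test, p = 0.1, the smallest p that 3 libraries against 3 allow, and 0.15 adjusted over the 3 comparisons). Between stage III and stage II the difference was 0.51, with 5 of 9 pairs higher (same exact permutation test, p = 0.7, adjusted 0.7). Without S2_2 this last difference was -0.22 and without S2_1 it was 1.21, so its direction rested on single libraries. Without S1_3 the differences from stage I were 2.49 for stage II and 3.00 for stage III.

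The change of the ratio can be divided into a part of each transcript. Between stages III and I, the mean log2 FPKM of FT differed by 4.31 and that of TEM2 by 0.24. This mean of logs gives S1_3 less weight than the edgeR fit, where TEM2 had a log2 fold change of -0.26, so the sign of the TEM2 difference depended on the scale. Between stages II and I the values were 2.66 for FT and -0.89 for TEM2, and between stages III and II they were 1.65 for FT and 1.14 for TEM2. FT thus made up most of the difference in ratio from stage I.

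**Figure D3:**
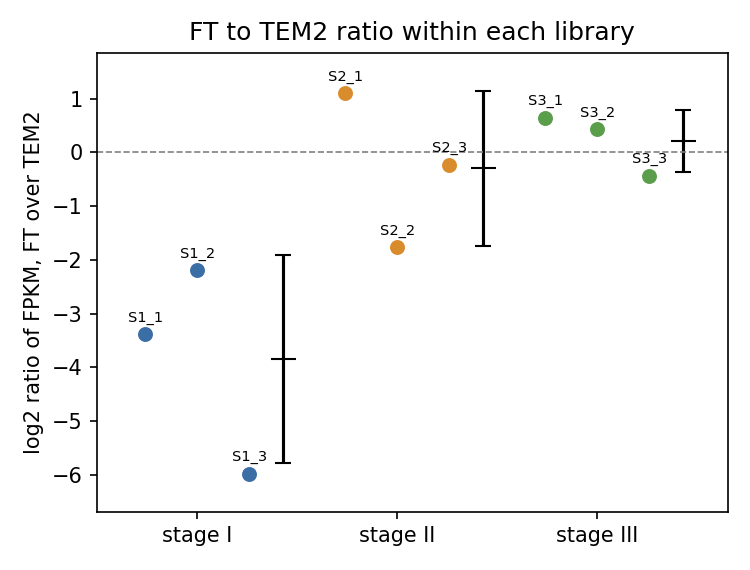
Log2 ratio of the FPKM of FT to that of TEM2 in each library, by stage. Points are libraries, the bars beside them give the mean and SD of the 3 libraries of a stage, and the dashed line marks equal levels. All stage I libraries lie below all libraries of the other stages, at ratios of 0.0158 to 0.219.

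In edgeR with all libraries, the log2 fold changes of FT and TEM2 had opposite signs between stages II and I and between stages III and I. That of TEM2 between stages III and I was -0.26. With all libraries it was positive in limma (0.20) and in edgeR with a block for the replicate number (0.14), so its sign was not settled. Between stages II and I, FT was higher and TEM2 lower at stage II in 8 of 9 pairs of libraries, and both were higher in the other 1. Without S1_3 this held in 5 of 6 pairs, but TEM2 then differed little. Neither transcript passed the threshold in this comparison. Between stages III and II, both were higher at stage III in 8 of 9 pairs, and in 1 pair FT was lower and TEM2 higher. Between stages III and I both were higher in 6 of 9 pairs, and the 3 opposite pairs were those with S1_3. The pairs share libraries, so these counts are a description.

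Within the stages, the library with the most FT was S1_2, S2_1 and S3_1, and the library with the most TEM2 was S1_3, S2_1 and S3_3. The order of FT was the reverse of that of TEM2 within stages I and III. Within stage II, FT and TEM2 alone were both highest in S2_1. The sum of TEM2 and c249520 was instead highest in S2_2, at 8.19 FPKM, against 7.59 in S2_1. At stage I, however, S1_1 and S1_2 had 5.73 and 5.66 FPKM of TEM2 and FT rested on 5 to 15 reads, and at stage III the range of TEM2 was 10.14 to 11.45 FPKM. These orders were not tested.

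The genes that act with or after FT in the model plant were described by a list of 7 transcripts of the study's 26, matched to AP1, FUL, LFY, SEP3 and SEPALLATA2. Since the study chose them on these libraries, their counts are not independent evidence. Between stages III and I, 6 of the 7 rose, against 11.9% of all transcripts tested, and none fell, and the list had a median log2 fold change of 3.82, against 0.02 for all 65124 transcripts tested. Between stages II and I, 4 of the 6 tested rose, against 9.49% of all transcripts tested, and none fell, with a median log2 fold change of 3.04, against -0.02 for all transcripts. The study's 24 transcripts other than FT and TEM2, which include these 7, rose often as well. Between stages III and I, 13 of the 23 tested rose and 3 fell (median 1.91). Between stages II and I, 10 of the 20 tested rose and 3 fell (median 1.43). Between stages III and II none of the 7 passed the threshold in edgeR, although all had a positive log2 fold change (median 1.35, against -0.01) and 6 of them an unadjusted p under 0.05. Of all transcripts tested in this comparison, 7.95% had a positive log2 fold change with an unadjusted p under 0.05. By the other tools, 3 were called in DESeq2 and 0 in limma. The median was the same with SEP3 (c231904), without reads at stage I, placed at 3 reads in each of those libraries.

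AP1, the A-class gene that FT activates with FD, is matched by a pair of transcripts. AP1 (c128329) had an FPKM of 0.49, 0.67 and 0 at stage I, 6.34, 3.85 and 3.29 at stage II and 15, 7.18 and 11.96 at stage III. It rose between stages II and I (log2 fold change 3.38, edgeR q = 0.0477) and between stages III and I (4.78, q = 0.0124). AP1 (c51214) had an FPKM of 0.46, 0.66 and 0.50 at stage I, 2.35, 0.87 and 0.87 at stage II and 4.19, 3.17 and 6.90 at stage III. It rose between stages III and I (3.01, edgeR q = 0.00592), and at stage II it was highest in S2_1, as FT was. FUL (c91035), a close relative of AP1, had 1, 2 and 4 reads at stage I and an FPKM of 3.15, 2.08 and 1.90 at stage II and of 4.12, 3.00 and 6.02 at stage III, and was called as higher in both stages than at stage I.

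LFY (c105452), the meristem identity factor, was the member of the list that passed in no comparison in edgeR with all libraries. Between stages III and I all 7 listed transcripts, LFY among them, were called in limma and in edgeR without S1_3. Its FPKM was 1.95, 2.52 and 0.05 at stage I, 3.93, 3.61 and 2.45 at stage II and 8.51, 3.66 and 7.77 at stage III. S1_3, the library with the most TEM2 and the least FT, had the 0.05 FPKM of LFY. Other listed transcripts differed there: AP1 (c128329) had 0 FPKM, whereas FUL had its most stage I reads, 4. SEP3, the E-class cofactor of floral organ identity, had 2 transcripts. SEP3 (c231904) had no reads at stage I and 6.07, 1.43 and 1.36 FPKM at stage II, where S2_1 again was highest, while SEP3 (c49771) had 7.04, 6.20 and 10.01 FPKM in the same libraries, where S2_3 was highest. SEPALLATA2 (c30233), a close relative of SEP3, had 2.77, 0.91 and 0.70 FPKM at stage II. At stage II, FT and 6 of the 7 listed transcripts were thus highest in S2_1. So were TEM2 alone, both PI transcripts and others that the study lists, while the rest were highest in S2_2 or S2_3. The sum of TEM2 and c249520 was highest in S2_2. The share of all transcripts that were highest in S2_1 was not counted. At stage III the library with the least FT, S3_3, had the most FUL and the most of AP1 (c51214).

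The other floral repressor on the study's list, AGL15, is a MADS-box factor that acts with its relative AGL18 to delay flowering in the model plant. AGL15 (c105115) had an FPKM of 10.71, 9.42 and 17.62 at stage I, 3.26, 3.13 and 3.47 at stage II and 2.35, 2.93 and 2.41 at stage III. It fell between stages II and I (log2 fold change -2.08, edgeR q = 0.00974) and between stages III and I (-2.43, q = 0.00540). AGL15 (c133723), at 0.72 to 0.81 FPKM at stage I and 0.19 to 0.22 at stage II, fell between stages II and I (-2.07, q = 0.0177). So between stages III and I an AGL15 transcript was called as lower, whereas TEM2 was not. Both TEM2 and AGL15 (c105115) were highest in S1_3.

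**Figure D4:**
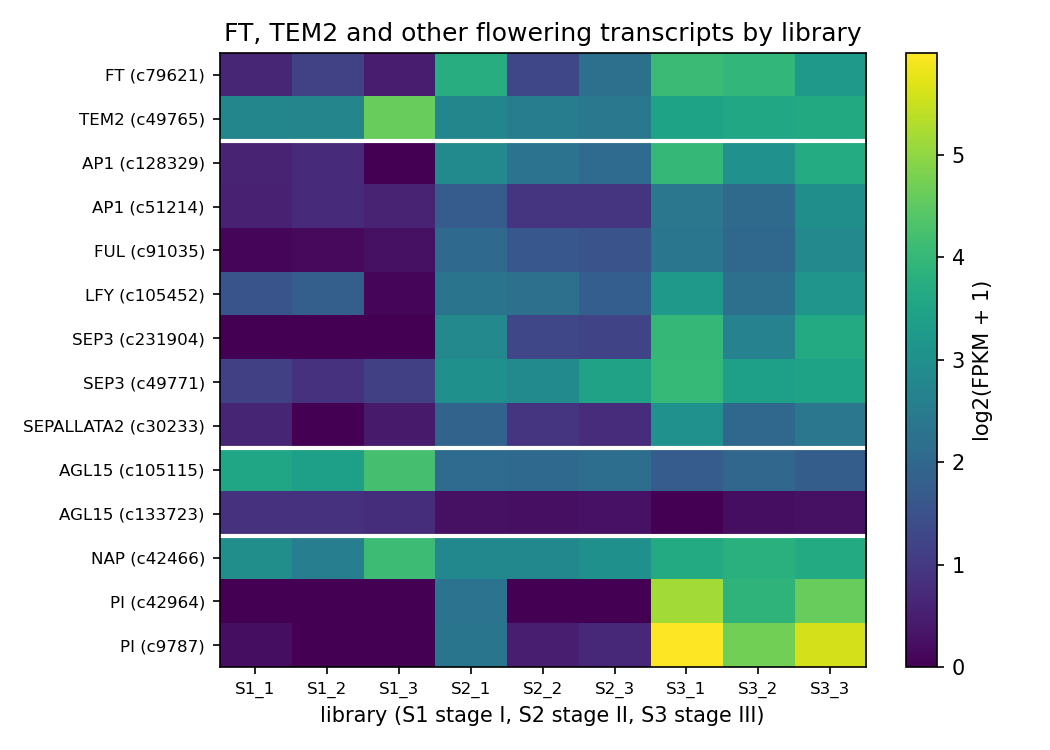
Levels of FT, TEM2, the 7 transcripts of the FT list, both AGL15 transcripts, NAP and both PI transcripts in the 9 libraries, as log2(FPKM + 1) on the colour scale. White lines part the groups. FT and the listed genes below it are brighter at stage III than at stage I. Among the stage II libraries, FT and the listed genes other than SEP3 (c49771) are highest in S2_1. TEM2, AGL15 (c105115) and NAP are highest in S1_3.

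Of the other 24 transcripts on the study's list, those whose log2(FPKM + 1) over the 9 libraries was most like that of FT were SEP3 (c231904) with a Pearson r of 0.93, ATVGT1 (c47156), a vacuolar glucose transporter, with 0.92 and AP1 (c128329) with 0.91. Over all 67770 other transcripts tested, i2_LQ_HNbud_c50413/f1p1/2307 was most like FT, with an r of 0.98. It had 2.61, 3.36 and 2.11 FPKM at stage I, 7.07, 3.76 and 5.17 at stage II and 7.58, 7.38 and 6.34 at stage III, so it was also highest in S2_1 among the stage II libraries. These values describe a shared course over the same 3 stages, and they carry no p.

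On the list, 1 transcript had a high r with TEM2, at 0.91. It was NAP (c42466), a NAC factor known for its roles in stamens and petals and in leaf senescence. NAP had an FPKM of 6.83, 4.95 and 16.33 at stage I, 5.93, 5.91 and 7.08 at stage II and 11.71, 12.94 and 11.58 at stage III. The next were the PI transcripts c42964 and c9787, which share reads, with an r of 0.35 and 0.32. Over all transcripts, i1_LQ_HNbud_c224262/f1p11/1353 was most like TEM2 (r = 0.99), with 100.73, 92.67 and 365.87 FPKM at stage I, 107.85, 96.30 and 67.18 at stage II and 151.06, 171.72 and 174.01 at stage III. All 3 transcripts were highest in S1_3, and r without this library was not computed. Within stage II, NAP was highest in S2_3, where TEM2 was lowest. Gene names for c50413 and c224262 were not looked up, since the annotation of the transcripts was not used here.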

How the data were processed

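Buds at 3 stages were sequenced by the authors as paired reads, filtered with ng_QC, mapped with bowtie2 to the polished long-read transcripts and counted with RSEM (versions not given in the sources used here). Per library, the authors deposited expected counts of RSEM, which are not normalized, and FPKM values made from them. No genome was used, and no sequences were read. The members and lists were chosen with earlier results of these data known. The transcripts named are FT, TEM2, the FT list, AGL15 and those most like FT or TEM2. PI was named as a marker of petal and stamen primordia. Those named for S2_1 and the sharing partner c249520 were found after the values were seen.

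Counts were rounded to whole numbers, filtered with filterByExpr (minimum count 10, minimum total count 15), normalized by TMM and tested per pair of stages with the quasi-likelihood test of edgeR 4.0.16 in R 4.3.3. The p values were adjusted over all transcripts tested by Benjamini-Hochberg (q). The SE was derived as the size of the fold change (log2) over the root of the F statistic. A call needs q under 0.05 and a fold change over 2. The study states q under 0.001 for DESeq. It was kept as an alternative on the edgeR q values. The other alternatives were DESeq2 1.42.0, RLE size factors, no filter, a single fit of all 9 libraries, a block for the replicate number, limma 3.58.1 on log2(FPKM + 1), no fold limit, each library left out, and for the ratio a pseudocount of 0.1 or 1 FPKM and read counts. The ratio itself has no pseudocount. Intervals at 95% cover counting error only, as PCR reads are not independent molecules. The edgeR code was tested on simulated data. Replicates of a stage were distinct libraries, with a chi-square per transcript of at least 10.4. It was largest for S1_3, at 77.4 with S1_1 and 81.6 with S1_2, against 17.4 between S1_1 and S1_2.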

Additional observations from a re-analysis of the deposited data

How the results depend on the processing

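The direction of FT was kept in all 3 comparisons and under each alternative run. Between stages II and I, where FT was not called, DESeq2 (log2 fold change 2.83) and all 9 libraries in 1 fit (2.81) called it, and with a library left out it ranged from 1.78 to 3.42. Between stages III and I the call was lost only at an edgeR q value under 0.001 (4.06), which the DESeq2 q value of 1.83e-11 passed. TEM2 between stages III and II lost its call with all 9 libraries in 1 fit (1.14), with the replicate block (1.14, q = 0.110), in limma on log2(FPKM + 1), where the fold change was just under 2 (0.998), and at a q value under 0.001 (1.13), and ranged from 1.05 to 1.22 with a library left out. TEM2 between stages III and I turned positive with the replicate block (0.14), in limma (0.20) and without S1_3 (0.78), and was as low as -0.63 with another library left out. The log2 ratio between stages III and II ranged from -0.22 to 1.21 with a library left out. A pseudocount of 1 FPKM lowered the differences in log2 ratio from stage I to 2.46 for stage II and 2.81 for stage III. The cause of the lost calls was not tested.

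The number of transcripts called was 11298 between stages II and I, 960 between stages III and II and 14488 between stages III and I. With the replicate block it was 0, 5 and 7718, at a q value under 0.001 it was 0, 4 and 4, and between stages III and II it was 1997 in DESeq2 and 6 with all 9 libraries in 1 fit. Where edgeR called 0 between stages II and I, 19926 (block) and 23919 transcripts had an unadjusted p under 0.05. With a library left out it was 2163 to 16977, 43 to 923 and 5555 to 21019. For the 7 transcripts of the FT list, 4, 0 and 6 were called. Between stages II and I this was 0 with the replicate block and at a q value under 0.001, and 2 to 4 with a library left out. DESeq2 called 3 between stages III and II, and between stages III and I none was called at a q value under 0.001. The replicate numbers gave no sign of pairing. The deviations of same-numbered libraries from their stage means correlated at -0.14 to 0.07 over transcripts, and those of other numbers at -0.11 to 0.15. Not every library correlated best with its own number. Values this near to each other cannot show that the libraries are unpaired. FT in stage I rests on 5 to 15 reads per library, which limits its fold changes.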
